A study of Mus musculus with 2 samples.

Results

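The serine/arginine-rich splicing factors (SR proteins) bind exons of pre-messenger RNA through RNA recognition motifs and recruit the spliceosome through their arginine- and serine-rich tails. The 10 genes described here, Srsf1, Srsf2, Srsf3, Srsf4, Srsf5, Srsf6, Srsf7, Srsf9, Srsf10 and Srsf11, were chosen by name from 55536 annotated genes, for their gene levels and for the shares of their transcript types. SR genes are known for transcripts that cannot give the full protein. Many of them include a cassette exon with an early stop codon, often called a poison exon, or splice an intron behind the normal stop codon, and the product is then destroyed by nonsense-mediated decay. Several SR proteins are known to promote such splicing of their own pre-messenger RNA and so to limit their own level. The regions around these exons are among the most conserved in mammalian genomes.

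Total RNA was sequenced from adrenal glands of female B6CASTF1/J mice, an F1 hybrid strain, at 25 days of age. The 2 libraries, replicate 1 and replicate 2, form 1 group without any treatment in the labels, and each was made from 300 ng of RNA with a directional kit and with ERCC spike-in RNA added. The labels are not in accord on whether the libraries came from separate animals, so an SD here is the spread of these libraries alone and may be technical. With 1 group there was no comparison between groups, and ratios are those of replicate 1 over replicate 2. The mm10 build is the genome of a C57BL/6J mouse, and how reads from CAST alleles were treated is not given in the sources used here.

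Expected counts, the authors' estimated reads per gene, summed to 19366343 in replicate 1 and 33728646 in replicate 2. Nuclear coding genes, leaving out Lars2, received 36.3% of them in replicate 1 and 66.1% in replicate 2, and the SR genes together received 11593 and 37660 counts. All 6 marker genes of the adrenal cortex and all 5 of the medulla were at 1 TPM (the length-scaled level of a gene or transcript) or more in both libraries. Liver markers differed between the libraries, as they summed to 204 TPM in replicate 1 but to 3.82 in replicate 2, and 1 of 7 was at 1 TPM or more in both. All 4 brown fat markers, with sums of 721 and 889 TPM, and all 5 erythroid markers, with sums of 1517 and 2088 TPM, were detected as well. The part of these other cell types in the SR values was not tested, and in bulk tissue fewer cells of a type and less RNA per cell cannot be told apart.

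The genes lie on chromosomes 2 (Srsf6), 3 (Srsf11), 4 (Srsf4 and Srsf10), 5 (Srsf9), 11 (Srsf1 and Srsf2), 12 (Srsf5) and 17 (Srsf3 and Srsf7). Of the 85 annotated transcripts of the SR genes, 15 carry the type nonsense-mediated decay in 9 genes and 26 the type retained intron in 8 genes. Srsf10 has neither type. In 6 genes (Srsf3, Srsf4, Srsf6, Srsf7, Srsf9 and Srsf11) the stop codon of a decay transcript lies in an exon found inside an intron of the leading coding transcript, which is the coding transcript with the highest mean TPM. A transcript of Srsf5 of the type processed transcript, Srsf5-206, has such an exon too. The sequences below show the exons of the 5 genes whose transcript starts at the start codon of the leading coding transcript, because these stretches are what ends the reading frame. Each runs from the first base of the exon, 5′ to 3′, to the early stop codon, which is in capitals (transcript sequences of GENCODE M21, mm10).
Srsf3-201: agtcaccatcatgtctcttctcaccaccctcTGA
Srsf5-206: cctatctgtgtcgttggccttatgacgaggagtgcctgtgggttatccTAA
Srsf6-201: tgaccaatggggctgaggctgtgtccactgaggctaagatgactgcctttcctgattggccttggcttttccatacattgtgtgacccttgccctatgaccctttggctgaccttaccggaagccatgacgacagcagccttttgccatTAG
Srsf7-203: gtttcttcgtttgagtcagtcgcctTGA
Srsf11-206: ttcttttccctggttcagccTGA

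The printed stretches lie at chr17:29039454-29039487 on the plus strand (Srsf3), chr12:80948129-80948179 on the plus strand (Srsf5), chr2:162932815-162932966 on the plus strand (Srsf6), chr17:80205054-80205081 on the minus strand (Srsf7) and chr3:158024209-158024231 on the minus strand (Srsf11), in mm10. The whole exons measure 456 bases in Srsf3, 376 in Srsf5, 268 in Srsf6, 460 in Srsf7 and 109 in Srsf11. Read from the normal start codon, Srsf3-201 stops after 124 codons, against 164 in the coding transcript Srsf3-202. The frame of Srsf6-201 stops after 135 codons, against 339 in Srsf6-203. For Srsf7-203 the stop comes after 137 codons, against 235 in Srsf7-208, and for Srsf11-206 after 112 codons, against 476 in Srsf11-202. The early stops of these 4 decay transcripts lie 548, 534, 699 and 456 bases before the last exon junction, a position that is known to mark a messenger RNA for decay. In Srsf5-206 the frame stops after 138 codons, against 269 in Srsf5-201, but the model ends in that exon and no junction follows the stop. In Srsf3, Srsf5, Srsf6 and Srsf7, 4 of the 7 genes with such an exon, at least 1 further annotated transcript retains the whole intron around it. The map of the introns shows where the exon lies in each.

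**Figure D1:**
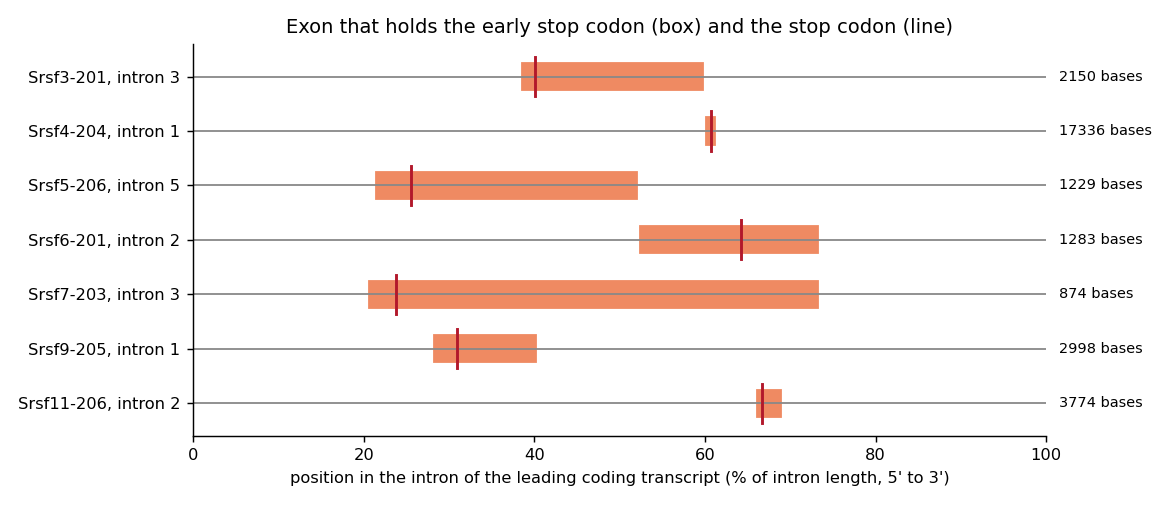
Each grey line is the intron of the leading coding transcript that holds the exon with the early stop codon, scaled to its length (printed on the right), and the x axis is the position in percent of that length from the 5′ to the 3′ end. The box is the exon and the vertical line the stop codon. The introns run from 874 bases in Srsf7 to 17336 bases in Srsf4, and the stop lies near the 5′ end of the exon in all but Srsf4 and Srsf6, where it is past the middle.

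The other genes follow other layouts. Srsf1-204, the leading decay transcript of Srsf1, splices out 2 introns within what is the last exon of the coding transcript Srsf1-201, and its stop codon is 80 bases before the last junction. Splicing within that exon is not limited to decay transcripts. The coding Srsf1-205, with 248 codons against 201 in Srsf1-201, splices out 1 intron there, and the coding Srsf1-202 splices out 2. By expected counts Srsf1-205 had 708 in replicate 1 and 2164 in replicate 2, beside 692 and 2058 for Srsf1-201. In Srsf2 the coding transcript Srsf2-201 already has 1 junction, 7 bases behind its stop codon. The decay transcripts of Srsf2 use the same stop codon, 113 bases before the last junction in Srsf2-204 and 217 in Srsf2-202. Srsf2-206 is annotated as protein coding although its stop codon is also 217 bases before the last junction. The annotated type is therefore not the same as the structure, and the shares below follow the type. Srsf4-204 and Srsf9-205 are models that do not start at the normal start codon, with the stop codon in exons of 188 and 358 bases.

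All 10 SR genes were expressed, from 19.2 to 122 TPM as the mean of the libraries. TPM is lower in replicate 1 for every member. The nuclear coding genes without Lars2 summed to 206815 TPM in replicate 1 and 338304 TPM in replicate 2. Levels are therefore ordered here by coding TPM, which is TPM rescaled to a sum of 1000000 over these genes. On that scale the members ranked between 272 and 3247 of 22014 genes in the libraries. Srsf5 had the highest level, with 384 coding TPM in replicate 1 and 487 in replicate 2 (435 ± 73.1, SD, n = 2). Srsf1 followed with 230 and 290 coding TPM, and its range overlapped that of Srsf2, at 258 and 251. Srsf6 had 241 and 226 coding TPM, and Srsf11 had 179 in both libraries. The range of Srsf6 overlapped that of Srsf1, which was below it in replicate 1, but not those of Srsf2 and Srsf11. Srsf10 with 171 and 121, Srsf3 with 121 and 167 and Srsf7 with 121 and 123 coding TPM overlapped. The lowest were Srsf9 with 78.2 and 72.6 and Srsf4 with 72.8 and 69.0 coding TPM, which overlapped each other.

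**Figure D2:**
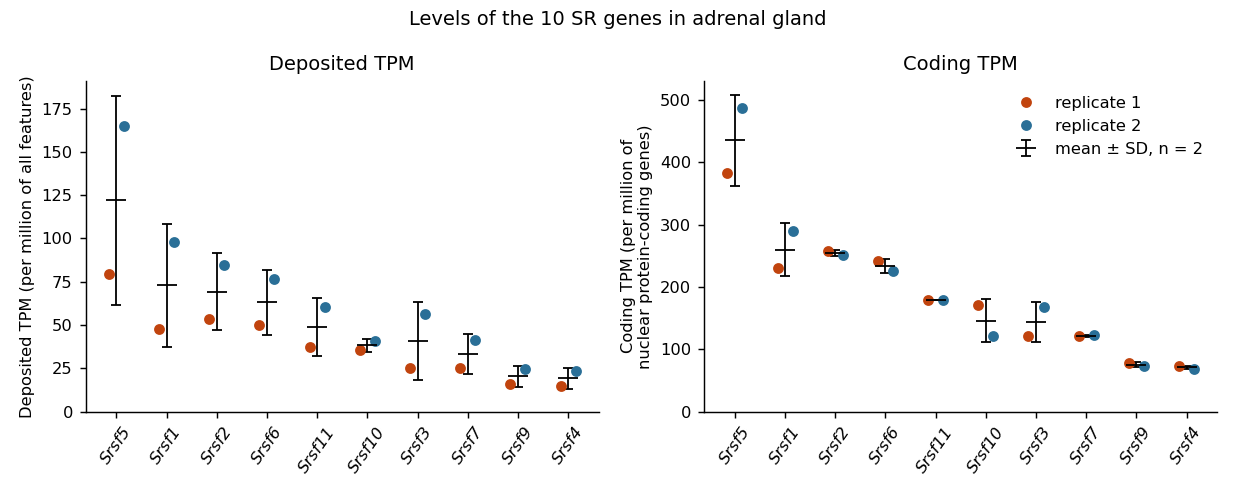
Gene levels of the 10 SR genes in replicate 1 (left point of each pair) and replicate 2 (right point), as deposited TPM in the left panel and as coding TPM in the right panel; black bars are the mean ± SD of the 2 libraries. In deposited TPM every member is lower in replicate 1, while in coding TPM some are higher and some lower, and Srsf5 is the highest on both scales.

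No SR gene differed 2-fold between the libraries, where 1.31% of the 11544 genes at or above a mean count of 100 did (expected counts scaled by TMM in edgeR, prior of 1 count). The log2 ratios of the SR genes ran from -0.25 to 0.19, and the median of their sizes without sign was 0.08, beside 0.16 over all genes tested. These medians were not matched for level. The lowest SR count was 283, for Srsf9 in replicate 1, while the genes tested go down to a mean count of 100. Srsf5 was lower in replicate 1, at 0.839-fold, with an exact Clopper-Pearson counting interval from 0.799 to 0.882 (95%). Srsf4, at 1.13-fold (interval 1.02 to 1.25), and Srsf10, at 1.14-fold (interval 1.06 to 1.23), were higher in replicate 1. These 3 of 10 are the members whose interval leaves out equal levels, as it did for 42% of all genes tested (22.8% lower and 19.2% higher in replicate 1), and the intervals cover counting error only. No p-value is given, since 2 libraries of 1 group leave no spread to test against. In deposited TPM, which is not scaled for RNA composition, 3 of the 10 were 2-fold or more lower in replicate 1, where 10.3% of all genes tested were (pseudocount of 1) and the median log2 ratio over these was -0.68.

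The median SR gene had less of its TPM on protein-coding transcripts, and more on decay and retained-intron transcripts, than the median of other genes; this is a description without a test. Their median protein-coding share was 52.9% in replicate 1 and 57.8% in replicate 2, against 81.3% and 83.1% over 3265 other protein-coding genes at 10 TPM or more in both libraries with an annotated decay or retained-intron transcript. The median decay share was 6.52% and 4.62% over the SR genes, against 0% in both libraries over the other genes. That 0% was fixed by the annotation, since only 1423 of the 3265 other genes have a decay transcript. The SR genes had a median retained-intron share of 20.4% and 23.4%, against 8.70% and 8.56% over the other genes. The libraries are of total RNA, and how far reads of unspliced pre-messenger RNA enter the retained-intron shares was not tested. Among genes that have a decay transcript the median decay share, as the mean of the libraries, was 8.84% over 9 SR genes and 4.17% over 1423 others. The gap was smaller in the second table, with 8.89% over the 9 SR genes and 7.05% over 1855 others. Decay and retained-intron transcripts together reached at least 25% of gene TPM in both libraries in 6 of the 10 SR genes (Srsf1, Srsf2, Srsf3, Srsf6, Srsf7 and Srsf11), where 23.4% of the other genes did. The authors' second transcript table, from another quantification of the same reads, put 5 of 10 past it (the same without Srsf2), where 26.4% of 4167 other genes did. As shares of expected counts, which do not divide by transcript length, 6 of 10 passed, with Srsf5 in and Srsf1 out, where 12.9% of the others did.

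**Figure D3:**
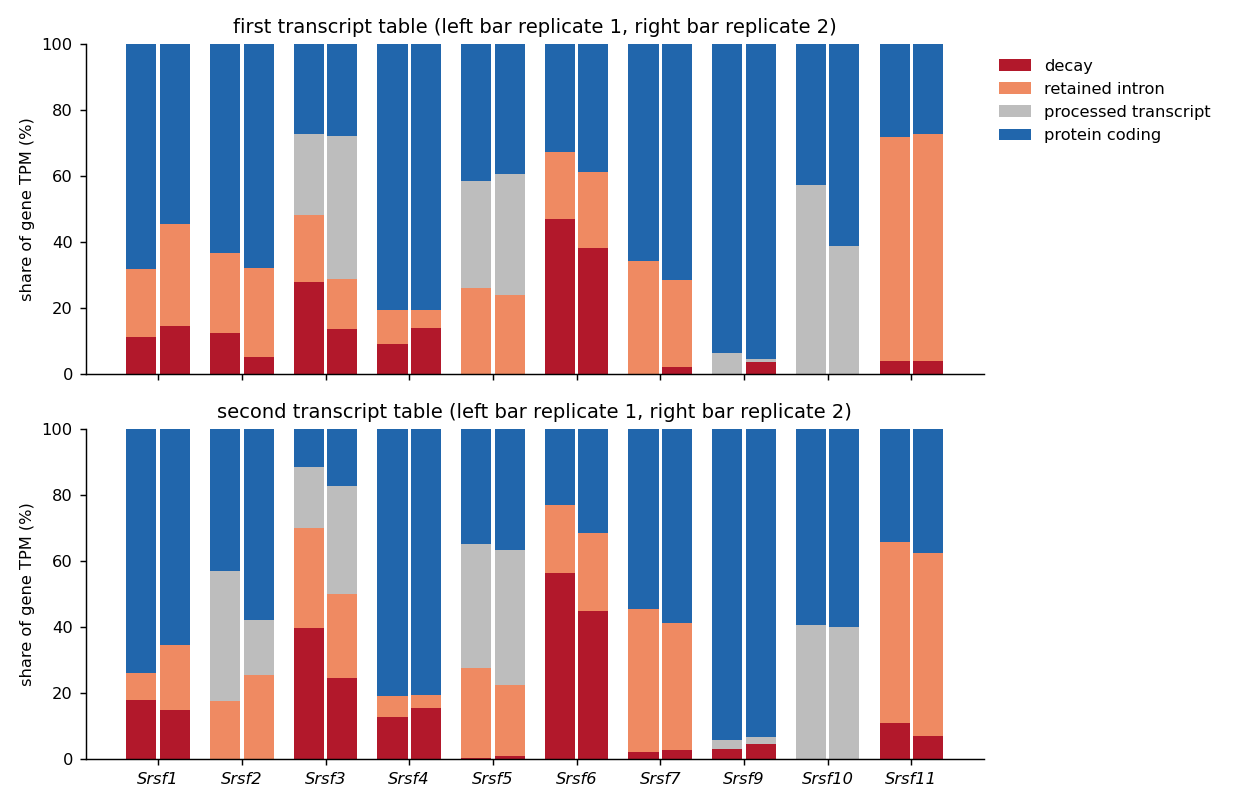
Share of each SR gene's TPM, in percent, on transcripts of 4 annotated types, from the first (upper) and second (lower) transcript table; the left bar of each pair is replicate 1 and the right bar replicate 2. Srsf6 has the highest decay share and Srsf11 the highest retained-intron share in both tables, and Srsf9 is almost all protein coding.

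The decay type alone was uneven within the family. At a minimum of 10%, set after the shares were seen, 3 of 9 SR genes passed in both libraries (Srsf1, Srsf3 and Srsf6), where 24% of the other genes with a decay transcript did. The second table gave 4 of 9, with Srsf4 added, where 31.5% of the others passed. The same minimum for retained-intron transcripts was passed by 7 of 8 SR genes, all but Srsf4, where 42.2% of 3072 other genes did, and in the second table by 6 of 8, without Srsf1 and Srsf4, where 43% did. In the first table no SR gene had a decay share above its protein-coding share in both libraries, where 5.62% of the others did. Srsf3 and Srsf6 did so in the second table, 2 of 9, where 6.52% of the others did.

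**Figure D4:**
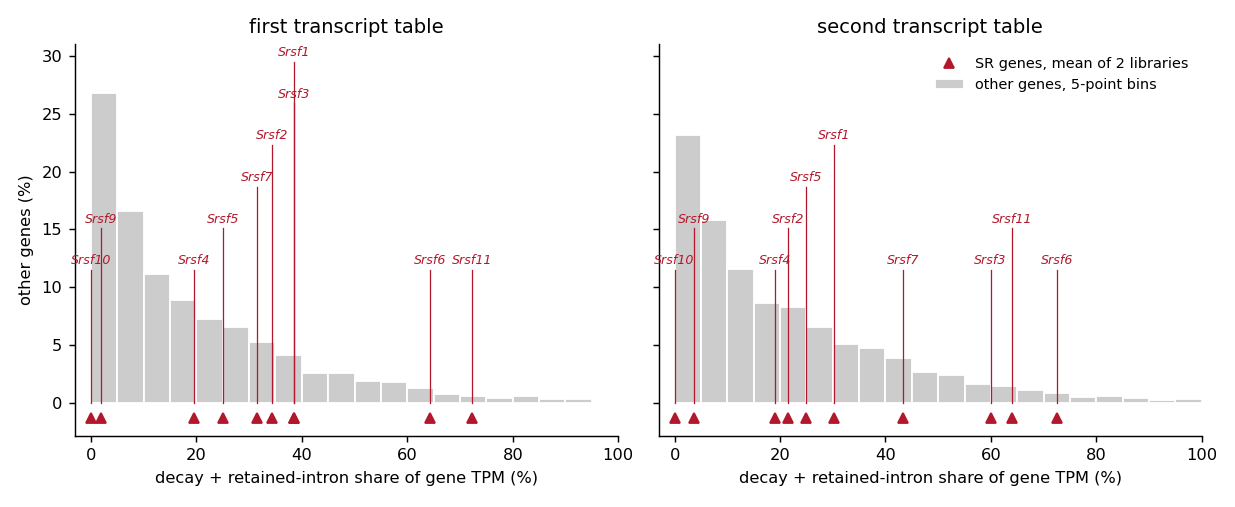
Distribution of the summed decay and retained-intron share of gene TPM (x axis, percent, mean of 2 libraries) over other expressed genes, as percent of these genes per bin of 5 points (y axis), in the first and second transcript table. Triangles and labelled lines mark the SR genes. Srsf10 and Srsf9 lie at the low end, Srsf6 and Srsf11 above 60% in both tables, and Srsf3 lies at 38.6% in the first and 59.9% in the second.

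Srsf6 (chromosome 2, 162931528 to 162937121, plus strand, mm10), an SR protein with a pair of RNA recognition motifs, had the highest decay share of the family. Its only decay transcript, Srsf6-201, which carries the exon printed above, held 47.1% of the gene's TPM in replicate 1 and 38.1% in replicate 2 (42.6% ± 6.36, SD, n = 2). The second table gave 56.3% and 44.8%. Among other genes with a decay transcript, 85 of 1423 (5.97%) had a share at least as high as the mean of Srsf6, and 78 of 1855 (4.20%) in the second table. Srsf6-201 stood at 23.5 and 29.1 TPM, and the coding transcript Srsf6-203 at 16.3 and 29.2 TPM. The intervals deposited with the TPM values, whose level is not given in the sources used here, ran from 19.4 to 25.8 TPM for Srsf6-201 and from 14.3 to 17.1 TPM for Srsf6-203 in replicate 1. They overlapped in replicate 2, at 25.7 to 31.3 TPM and 27.4 to 30.0 TPM. The ratio of decay to coding transcript was thus 1.45 in replicate 1 and 0.996 in replicate 2, and 2.43 and 1.46 by the second table. Srsf6-204, which retains the intron around that exon, added 20.3% and 23.0%. As a share of expected counts, which are not divided by length, the decay transcript held 30.5% and 23.4%; Srsf6-201 has 1666 bases and Srsf6-203 has 3527.

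Srsf5 and Srsf4 are its closest relatives. Srsf5 had almost no TPM on its annotated decay transcript Srsf5-208, with 0% in replicate 1 and 0.164% in replicate 2. Its leading transcript by TPM in the first table was Srsf5-206, the processed transcript with the stop exon, with 22.2 TPM in replicate 1 and 53.5 in replicate 2, which was 27.9% and 32.4% of the gene by the deposited isoform percent. The second table gave it 24.4% and 22.4%, and there the coding Srsf5-205 led in replicate 2, with 21.5% in replicate 1 and 30.1% in replicate 2. Srsf5-212, which retains the same intron, led by expected counts, with 737 and 2844 beside 286 and 1323 for Srsf5-206. In TPM Srsf5-212 had 17.2 and 34.5, and the leading coding transcript Srsf5-201 had 14.9 and 27.2 TPM. Protein-coding transcripts together held 41.4% and 39.2% of Srsf5, so the highest SR gene had less than 50% of its TPM on coding transcripts in both libraries. Srsf4 was mainly coding, with 80.5% and 80.4%. Its decay share was 9.16% and 14.0%, with Srsf4-204 at 0.92 and 2.22 TPM beside 12.1 and 18.8 TPM for the coding Srsf4-202.

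Srsf3, a small SR protein known to link splicing with RNA export, had the largest spread of the decay share between the libraries in the first table (SD 9.97 percentage points). Its decay transcript Srsf3-201 held 28.0% of TPM in replicate 1 and 13.8% in replicate 2, and 39.5% and 24.6% in the second table, so both tables had it higher in replicate 1. Protein-coding Srsf3-202 held 27.2% and 27.9%, while the second table had it at 11.6% and 17.3%. The ratio of Srsf3-201 to Srsf3-202 was 1.03 in replicate 1 and 0.497 in replicate 2, but 3.41 and 1.43 in the second table. The processed transcript Srsf3-209, of 518 bases, also differed, with 1.48 TPM in replicate 1 and 21.2 in replicate 2. Its deposited intervals, 0.154 to 3.97 TPM and 17.6 to 24.6 TPM, did not overlap, and the second table gave 2.54 and 10.9 TPM. As shares of expected counts the decay transcripts held 31.7% and 20.1%. Of the distinct 50-base words in Srsf3 transcripts, 10.0% also occur in other genes, Gm12355 and Gm9761 above all, so the split of reads between these is uncertain.

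Srsf7, the closest relative of Srsf3, showed the other balance, with retained introns and little decay. Retained-intron transcripts held 34.4% in replicate 1 and 26.1% in replicate 2, and 43.4% and 38.5% in the second table. Srsf7-206, at 7.73 and 9.80 TPM, retains the intron that holds the stop exon of Srsf7-203. The decay transcript Srsf7-203 itself was at 0 in replicate 1 and 0.97 TPM in replicate 2 in the first table. Its deposited interval reached 0.527 TPM in replicate 1 and began at 0.523 TPM in replicate 2, so the difference was not clear of the quantification's own error.

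Srsf1, a general splicing factor that also acts on translation and is known as an oncogene product, had 11.4% of its TPM on decay transcripts in replicate 1 and 14.5% in replicate 2. The second table gave 17.8% and 14.8%, with the libraries in the other order. All of it in the first table was Srsf1-204, at 5.40 and 14.3 TPM, against 14.8 and 23.0 TPM for the coding Srsf1-201. Retained-intron transcripts held 20.4% and 30.9%, but 8.36% and 19.6% in the second table, where Srsf1-203 was at 0 and 9.80 TPM, beside 7.67 and 19.8 TPM in the first. Srsf1-203 and Srsf1-204 have 759 and 896 bases and Srsf1-201 has 2948. By expected counts decay and retained-intron transcripts held 9.84% and 16.4%, under the 25% that they passed by TPM. Srsf9, its closest relative, was the most coding member, with 93.6% and 95.4% protein-coding TPM. Its decay transcript Srsf9-205 was at 0 and 0.94 TPM in the first table.

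Srsf2, an SR protein that is known to stay in the nucleus and to be mutated in human myeloid disease, was read differently by the tables. In the first table its decay share was 12.4% in replicate 1 and 5.27% in replicate 2, nearly all Srsf2-204 at 6.06 and 4.47 TPM. The deposited intervals were wide, from 1.19 to 10.0 TPM and from 0.203 to 8.20 TPM. In the second table Srsf2-204 was at 0 in both libraries, and the processed transcript Srsf2-205 of 433 bases had 33.0 and 24.0 TPM where the first table had 0. The tables came closer on Srsf2-203, which retains an intron, at 24.3% and 26.9% in the first and 17.5% and 25.5% in the second. The genes Mettl23 (4.57 and 9.75 TPM) and Mfsd11 (8.77 and 13.0 TPM) overlap Srsf2 on the opposite strand. Other members have overlaps on the same strand, Srsf4 with A930004J17Rik (1.42 and 2.63 TPM) and Srsf11 with Gm43362 (1.16 and 1.35 TPM). The split of reads between these genes was not tested.

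Srsf11 (chromosome 3, 158010473 to 158036639, minus strand, mm10), an SR protein with a single RNA recognition motif known in human cells to bind the splicing factor U2AF, had the highest retained-intron share. It was 68.0% of TPM in replicate 1 and 68.8% in replicate 2 (68.4% ± 0.525, SD, n = 2), and 54.7% and 55.6% in the second table. Only 31 of 3072 other genes with such a transcript (1.01%) reached that mean, and 131 of 3889 (3.37%) in the second table. Srsf11 has 11 annotated retained-intron transcripts, more than any other member. No exon of these models spans a whole intron of the coding Srsf11-202, so the share rests on the annotated type. The leading retained-intron transcript, Srsf11-208, had 7.82 and 11.8 TPM, and the coding Srsf11-202 had 6.33 and 11.2 TPM. Read from the normal start codon, Srsf11-208 stops after 164 codons, and no junction follows the stop. By expected counts the retained-intron share was 62.7% and 61.7%. The decay transcript Srsf11-206, with its exon printed above, had 1.07 and 1.88 TPM in the first table and 5.62 and 8.77 TPM in the second.

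Srsf10, which represses splicing when dephosphorylated after heat shock, has no annotated decay or retained-intron transcript. Protein-coding transcripts held 42.5% of its TPM in replicate 1 and 61.1% in replicate 2, and processed transcripts the rest. The second table gave 59.4% and 60.0%, with hardly a difference between the libraries. By expected counts the coding share was 83.0% and 90.3% and the processed share 17.0% and 9.70%. Srsf10-207, the leading processed transcript, had 6.62 and 10.0 TPM. Read from the normal start codon, Srsf10-207 stops after 69 codons, against 183 in the coding Srsf10-205, and 22 bases before its last junction. The processed transcript Srsf10-201 stops after 69 codons too, 677 bases before its last junction. It had 0.81 and 0 TPM in the first table and 3.77 and 6.40 TPM in the second. The processed transcript Srsf10-209 of 394 bases had 9.99 TPM in replicate 1 and 2.37 in replicate 2, from 48.2 and 22.0 expected counts. In coding TPM the gene's log2 ratio was 0.49, beside 0.19 from counts. Srsf10 shares 9.41% of its 50-base words with Gm5446 and Gm9134, and Srsf5 shares 10.1% with other genes, while the SR genes share none with each other.

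**Figure D5:**
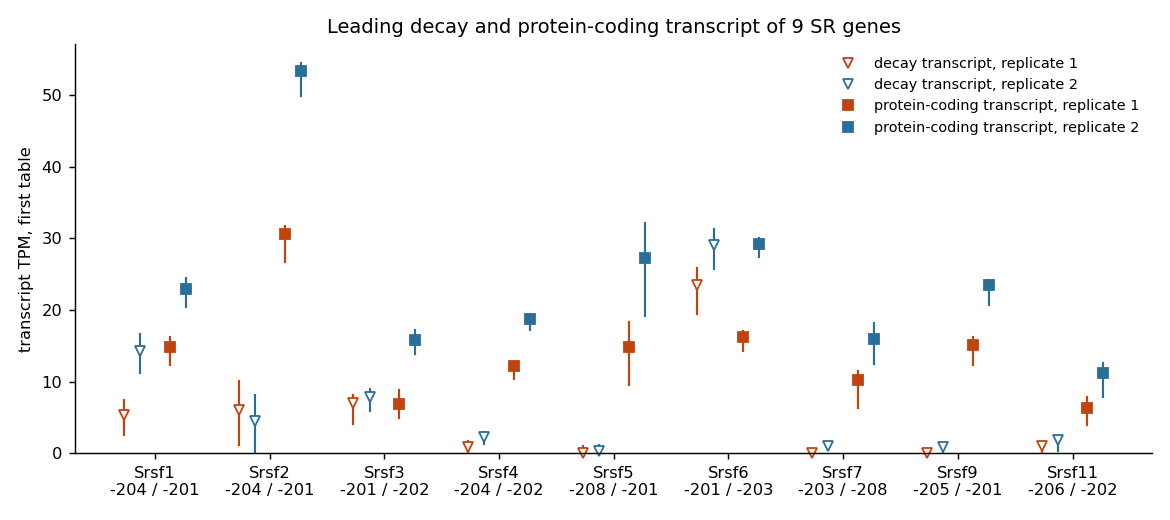
TPM in the first transcript table (y axis) of the leading decay transcript (open triangles, left) and the leading protein-coding transcript (filled squares, right) of the 9 SR genes with a decay transcript, in replicate 1 and replicate 2; vertical lines are the intervals deposited with the values. In Srsf6 the decay transcript lies above the coding one in replicate 1 and level with it in replicate 2, in Srsf3 both are close in replicate 1, and in Srsf5, Srsf7 and Srsf9 it lies near 0.

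Genes that act with the SR proteins were set beside them by the same measures. A mean count of 100 was reached by 10 kinases and import factors, 20 SR-related proteins and 26 hnRNP proteins. It was also reached by 16 factors of nonsense-mediated decay and the exon junction complex. None of these was 2-fold apart between the libraries, where 1.31% of all 11544 genes at that minimum were. The decay and retained-intron share is counted here over list genes that meet the filter of the other genes (at least 10 TPM in both libraries and an annotated transcript of these types). Of all genes outside the SR family that meet it, 23.4% had at least 25% in both libraries in the first table and 26.4% in the second. Among 11 kinases and import factors of SR proteins, 8 met the filter and 6 of these had at least 25%, with a median of 53.2%. The kinases Clk1 (39.0 and 55.3 TPM), Clk4 (27.2 and 36.6 TPM) and Prpf4b (26.5 and 36.3 TPM) had the highest levels. Clk1, which phosphorylates SR proteins in the nucleus, had 64.0% in replicate 1 and 73.7% in replicate 2 on these types, and the highest log2 ratio of the list, 0.37. The lowest was that of the cytoplasmic kinase Srpk2, -0.28. Of 21 SR-related proteins 19 met the filter and 14 of these passed, with a median of 29.8%. Srrm2, a large spliceosome protein, had 173 and 335 TPM and shares of 36.5% and 37.9%, Rbm39 had 86.9 and 157 TPM and shares of 52.1% and 51.9%, and Snrnp70, of the U1 particle, had 75.8 and 140 TPM and shares of 60.2% and 55.7%. Their log2 ratios ran from -0.12 in Sfswap to 0.48 in Tra2a, a splicing activator close to the SR family.

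Of 26 hnRNP proteins, which often oppose SR proteins at exons, 19 met the filter and 10 of these had at least 25%, beside 23.4% of other genes, with a median share of 26.9%. The highest levels were those of Hnrnpk (168 and 273 TPM), Hnrnpa2b1 (178 and 242 TPM) and Pcbp2 (170 and 246 TPM), and log2 ratios ran from -0.43 in Hnrnpd to 0.39 in Ptbp1. Among 17 factors of nonsense-mediated decay and the exon junction complex 4 met the filter and 2 of these passed, too few to describe the list. Eif4a3, Rbm8a and Magoh, core proteins of the exon junction complex, were highest with 25.3 and 42.6, 20.5 and 24.0, and 16.7 and 23.6 TPM. Log2 ratios in that list ran from -0.45 in Dhx34 to 0.30 in Upf3b. In the same order of lists, 7 of 9, 15 of 20, 9 of 20 and 2 of 5 genes that met the filter had at least 25% by the second table, beside 26.4% of other genes. Of 1230 other genes with transcripts of all 3 types, those nearest to the SR medians of the coding, decay and retained-intron shares (mean of both libraries, Euclidean distance) were Zc3h14, Pkn2, Rsrc2, Zfp280d and Cdk8, at 3.65 to 5.46 percentage points.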

How the data were processed

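Total RNA of 2 adrenal libraries was quantified by the authors, per the notes deposited beside the files, on mm10 with GENCODE M21. The sources used here do not name the program. The deposited expected counts are estimated reads, and the deposited TPM is scaled over all features, spike-ins included. The first transcript table, which also holds the deposited isoform percent, goes with the gene table; the second was made straight from reads. Entries for tRNA and spike-ins (0.473% and 0.797% of counts) were left out. Types, symbols and exons came from GENCODE M21 by identifier. Rounded counts were scaled by TMM (edgeR 4.0.16, R 4.3.3), or DESeq2 1.42.0 as an alternative, and log2 ratios used a prior of 1. Shares are sums of TPM per type over gene TPM. Intervals of folds cover counting error only, since reads may be copies of 1 molecule and the labels name no molecular identifiers. Reading frames were read from the annotated start codon. Folds and shares were tested on simulated data (Python 3.11.15). With 2 libraries in 1 group no p-value was computed. The members, lists, thresholds and the coding TPM scale were chosen with earlier results of these data known. Named genes are all 10 members, and per list the 3 highest in mean TPM and both extremes of the ratio at a mean count of 100 or more. Named transcripts are each member's highest per type, of which Srsf3-204, Srsf4-201, Srsf9-201 and Srsf9-202 are not described in the text. Further transcripts (Srsf2-202, Srsf2-206, Srsf5-205 and Srsf10-209 among them) were named after their values were seen.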

Additional observations from a re-analysis of the deposited data

How the results depend on the processing

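No paired analysis was possible because the design has 1 group. The count of SR genes 2-fold apart stayed at 0 with DESeq2 size factors, lower count minimums, the second table and coding TPM, and was 1 with total counts and 3 with deposited TPM at a pseudocount of 1 or 0.1. The count over all genes was 151 of 11544, and 4167 of 11544 with total counts. It was 938 of 16882 at a minimum mean count of 10 and 5009 of 26008 with no minimum. With deposited TPM it was 1236 of 11544 at a pseudocount of 1 and 2427 of 11544 at 0.1. Total counts are not scaled for the smaller share of coding RNA in replicate 1. As shares of expected counts the SR medians were 2.69% decay, 25.5% retained intron and 67.1% coding, against 6.38%, 23.3% and 56.6% of TPM. With only the 3 types in the denominator, the retained-intron and coding medians were 25.6% and 63.7%. Leaving out 1 library gave 4.62% to 6.52% for decay, 20.4% to 23.4% for retained introns and 52.9% to 57.8% for coding. The share of other genes with at least 25% on decay and retained-intron types, 23.4%, was 26.4% in the second table, 12.9% by counts and 6.62% at a minimum of 50%. It was 29.5% of 4777 genes without replicate 1 and 31.1% of 3270 without replicate 2. That rule is looser, as a gene then had to pass in 1 library only. Of the 10 SR genes, 6 passed the main rule, 5 in the second table, 6 by counts and 2 at a minimum of 50%. Without replicate 1 it was 6, and without replicate 2 it was 7. For the changes by table and by counts the cause was not tested. Every SR log2 ratio moved past its counting interval with total counts, none with the second table or DESeq2 size factors, and 4 of 10 with coding TPM. The low decay transcripts Srsf5-208, Srsf7-203 and Srsf9-205, in the first table at 0 in replicate 1 and under 1 TPM in replicate 2, rest on few reads. They had 0 expected counts in replicate 1 and 3.75, 57.6 and 38.1 in replicate 2, and the part of depth in this was not tested. The second table had them at 0.272, 0.544 and 0.649 TPM in replicate 1 and at 2.62, 1.51 and 2.19 TPM in replicate 2.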
